A study of Mus musculus with 10 samples.

Results

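The cathepsins are proteases of the lysosome, and 10 of their genes are described here: Ctsa, Ctsb, Ctsc, Ctsd, Ctsf, Ctsh, Ctsk, Ctsl, Ctso and Ctsz. They were taken by name, as the rows whose Ensembl identifiers carry these symbols. All 10 were found among the 53379 genes of the count table. The choice was made with earlier results of these data known. RNA was sequenced from MC38 tumor cells, a mouse colon carcinoma line, sorted 21 days after implantation as dTomato-positive cells lacking CD45, the surface protein common to leukocytes. The tumors grew in C57BL/6J mice, 5 fed a high-fat diet and 5 fed a control diet, with 1 library per mouse. The sources used here do not state mouse age, sex, diet composition or time on diet, and MC38 is a single line, so the mice are the only replicates. The question asked of the data was which cathepsin transcripts moved with transcripts of macrophages, which did not, and whether either kind differed between the diets.

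Cathepsins are made as inactive precursors, carried to the lysosome mostly on mannose 6-phosphate receptors, and activated there by acid and by proteolytic trimming. They differ in catalytic residue: cathepsin D uses aspartate, cathepsin A serine, and the others described here use cysteine. Tumor cells and tumor-associated macrophages both make and secrete cathepsins, which cut matrix proteins outside the cell, and cathepsins C and S are known chiefly from leukocytes.

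Libraries held 16513388 to 17154050 counts on the high-fat diet and 17050797 to 18653705 on the control diet, and 14337 genes had enough counts to test. Values are CPM, the counts of a library over its TMM-normalized size. The colon carcinoma label was checked against 9 epithelial markers, whose summed level was 1.22 to 3.18 CPM on the high-fat diet and 1.42 to 6.29 CPM on the control diet. Epcam, an epithelial adhesion protein, did not exceed 0.12 CPM on the high-fat diet or 0.53 CPM on the control diet. The 10 fibroblast markers summed to 6365 to 12567 CPM on the high-fat diet and 7035 to 12015 CPM on the control diet. They were uneven: over all libraries Col3a1, a collagen gene, averaged 7798 CPM and Dcn, a matrix proteoglycan, 1002 CPM. Pdgfra averaged 383 CPM, Pdgfrb 149 CPM, Col1a1 137 CPM and Dpt 98.7 CPM. Lower were Lum at 14.2 CPM, Col1a2, another collagen gene, at 11.7 CPM, Thy1 at 3.08 CPM and Fap, a stromal protease, at 1.48 CPM. The epithelial part of the label thus had almost no support in these transcripts.

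Macrophage transcripts were present although CD45-bearing cells had been gated out. Of 20 macrophage markers, 19 were tested, and Cd163, a scavenger receptor, was too low. Their summed level was 44.7 to 98.6 CPM on the high-fat diet and 80.3 to 594 CPM on the control diet. Ptprc, the gene for CD45, had 0.71 to 8.73 CPM on the high-fat diet and 1.33 to 23.8 CPM on the control diet. A macrophage score, the mean log2 CPM of the 19 markers, was 0.57, 1.86, 1.06, 1.09 and 1.32 in high-fat mice 1 to 5, against 2.90, 1.48, 4.10, 4.36 and 1.74 in control mice 1 to 5. Control mice 3 and 4 stood apart at the top of the score, and results that lean on them are also given without them. In bulk RNA, fewer macrophages and less RNA per macrophage cannot be told apart.

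The 10 cathepsins spanned a wide range of levels. Compared per kilobase of principal transcript, Ctsl was highest, and it made up 52.9% of the summed cathepsin level. Ctsl had 749 ± 67.4 CPM per kb on the high-fat diet and 822 ± 93.0 on the control diet (SD, n = 5 each). Ctsz followed, with 248 ± 12.2 CPM per kb on the high-fat diet and 259 ± 10.4 on the control diet (SD, n = 5 each). Over all 10 libraries the next levels were 163 ± 27.2 CPM per kb for Ctsd, 141 ± 11.1 for Ctsb and 105 ± 10.6 for Ctsa (SD, n = 10). Ctsh, Ctso and Ctsc formed a lower tier, at 17.1 ± 4.46, 12.7 ± 2.92 and 7.37 ± 8.82 CPM per kb (SD, n = 10). In this order the ranges of Ctsd and Ctsb overlapped, as did those of Ctsh and Ctso, of Ctso and Ctsc, and of Ctsk and Ctsf, while the other neighbours were apart. The length used mattered for the first place, and levels per kilobase of either length were not among the planned comparisons. Per kilobase of all annotated exons, a measure chosen after the data were seen, Ctsl fell to 239 CPM per kb. Its libraries ran from 196 to 292 and overlapped those of Ctsz, at 254 and 228 to 271. The 52.9% share of Ctsl is of levels per kilobase of principal transcript only.

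**Figure D1:**
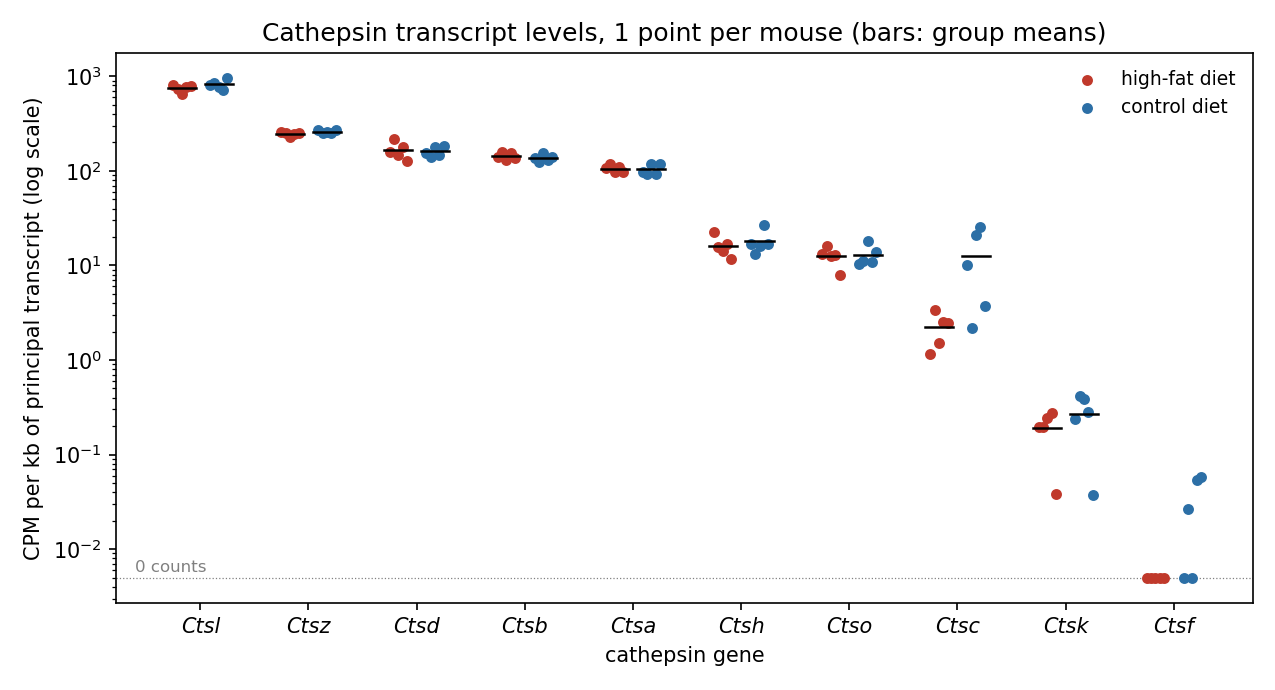
Level of each cathepsin per mouse, in CPM per kilobase of the principal transcript on a log axis, with high-fat mice left of control mice and bars at group means. Ctsl lay highest, Ctsc was the gene with the widest spread among those tested, and Ctsf was at 0 counts in 7 libraries, drawn on the dotted line.

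Ctsk and Ctsf were close to absent and did not reach the count filter. Ctsk, a collagen-cutting cathepsin typical of osteoclasts, had 5, 5, 6, 7 and 1 counts in high-fat mice 1 to 5, against 6, 12, 10, 8 and 1 counts in control mice 1 to 5. Ctsf, a widely expressed cysteine cathepsin, had 0 counts in all 5 high-fat libraries, against 0, 1, 0, 2 and 2 counts in control mice 1 to 5, and a count of 0 allows up to 3, for counting error only. Groups overlapped for both genes. On log2(CPM + 0.5), the high-fat minus control difference was -0.19 for Ctsk (exact two-sided permutation p = 0.437, n = 5 each) and -0.14 for Ctsf (exact two-sided permutation p = 0.167, n = 5 each). Calcr, the calcitonin receptor that marks osteoclasts, was at 0 in all 10 libraries.

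Of the 8 tested cathepsins, Ctsc was the one whose level followed the macrophage score. Ctsc encodes dipeptidyl peptidase I, which removes N-terminal dipeptides and activates the granule serine proteases of leukocytes. It lies on the plus strand of chromosome 7 (GRCm38 chr7:88278085-88310888). Ctsc had 2.92, 8.42, 3.79, 6.33 and 6.12 CPM in high-fat mice 1 to 5, against 25.4, 5.46, 52.7, 63.4 and 9.22 CPM in control mice 1 to 5. Control mice 1, 3, 4 and 5 were above every high-fat mouse, but control mouse 2 lay inside the high-fat range, so the groups overlapped. The highest library was 21.7 times the lowest.

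In a model with diet and the score together, the slope of Ctsc was 1.14 log2 units per unit of score (95% interval 0.97 to 1.32; edgeR quasi-likelihood test, Benjamini-Hochberg adjusted p = 4.5e-06). A slope of 0 means that a gene was unrelated to the score, and a slope of 1 that its level was proportional to the markers' level. Of the 8 cathepsins tested, 1 passed the adjusted threshold of 0.05 with a positive slope, and of all 14337 genes 1.86% did. Ctsc stayed past the threshold in all 22 alternative fits of this slope, and without control mice 3 and 4 its slope was 1.34 (edgeR adjusted p = 0.0348). Without a model, Pearson's r between Ctsc and the score was 0.99 (permutation p = 1e-05, the smallest that 100000 resamples can give) and Spearman's rho 0.94 (permutation p = 0.00016), over 10 libraries. Leaving out control mice 3 and 4, the farthest from the median score, r was 0.97, and after subtracting each diet's mean it was 0.98.

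Macrophage markers had slopes on both sides of that of Ctsc. With each marker left out of the score used to test it, the 19 slopes ran from 0.43 for Cd14, a co-receptor for lipopolysaccharide, to 1.29 for Itgam, an integrin of myeloid cells, and all 19 passed at the adjusted threshold (edgeR). The intervals of Cd14 (0.24 to 0.61) and of Lyz2 (0.60 to 0.87), a lysozyme of myeloid cells, lay wholly below that of Ctsc. That of Cd68, a lysosomal membrane protein of macrophages, also lay below it, though barely (0.606 to 0.969, against a lower limit of 0.971 for Ctsc). The ratio of Ctsc to Csf1r, the receptor for the macrophage growth factor CSF1, was 1.27 to 2.45 on the high-fat diet and 1.23 to 1.95 on the control diet. This ratio spanned 2.00-fold over the 10 libraries, against 34.7-fold for Ctsb over Csf1r and 37.0-fold for Ctsl over Csf1r. Csf1r alone spanned 32.4-fold, so the ratio of any steady gene to it would span about as much. Among 9637 genes with a mean of at least 10 CPM, the 3 whose log2 levels were most like Ctsc over the 10 libraries were C1qa (Pearson r = 0.991), a complement subunit on the marker list, Cd74 (r = 0.990), the invariant chain of class II antigen presentation, and Apoe (r = 0.988), the lipid carrier.

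The score was not particular to macrophages, because transcripts of other leukocytes followed it as well (edgeR, adjusted threshold). Of 14 pan-leukocyte markers 13 passed with a positive slope, with a median of 1.202, where 1.86% of all genes passed. Of 14 T and NK cell markers 4 could be tested, and 3 of them passed, with a median slope of 1.77. Ighm, an immunoglobulin heavy chain gene and the 1 tested B cell marker of 6, passed with a slope of 1.01, and 1 of 3 tested dendritic cell markers passed. On a score made of the pan-leukocyte markers the slope of Ctsc was 0.97 (edgeR adjusted p = 0.000408). The part of each leukocyte type in the Ctsc values was not tested.

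Ctss, a leukocyte cathepsin that trims the invariant chain and is not among the 10, gave a yardstick from the same family. Ctss had 6.55, 11.7, 6.96, 9.70 and 11.4 CPM in high-fat mice 1 to 5, against 28.2, 5.68, 72.7, 91.0 and 12.01 CPM in control mice 1 to 5. The order of libraries was close to that of Ctsc, with control mice 3 and 4 highest. Its slope on the score was 1.19 (edgeR adjusted p = 1.28e-05), but without control mice 3 and 4 the slope of 1.12 did not pass (edgeR adjusted p = 0.18). The ratio of Ctsc to Ctss was 0.45 to 0.72 on the high-fat diet and 0.70 to 0.96 on the control diet.

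The other 7 tested cathepsins had slopes between -0.11 and 0.14, and no upper limit of their 95% intervals exceeded 0.37. None of these intervals reached 1 or the lower limit of 0.97 for Ctsc, and 6 of the 7 held 0. Level limits what these slopes can show. Over the 10 libraries Ctsl averaged 1548 CPM and Ctsb 668 CPM, against at most 91.0 CPM for Ctss in any library. A macrophage part as large as Ctss would move such abundant genes little. Ctso and Ctsh were lower, at 44.1 and 27.6 CPM. The macrophage part of these 7 genes was not tested.

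**Figure D2:**
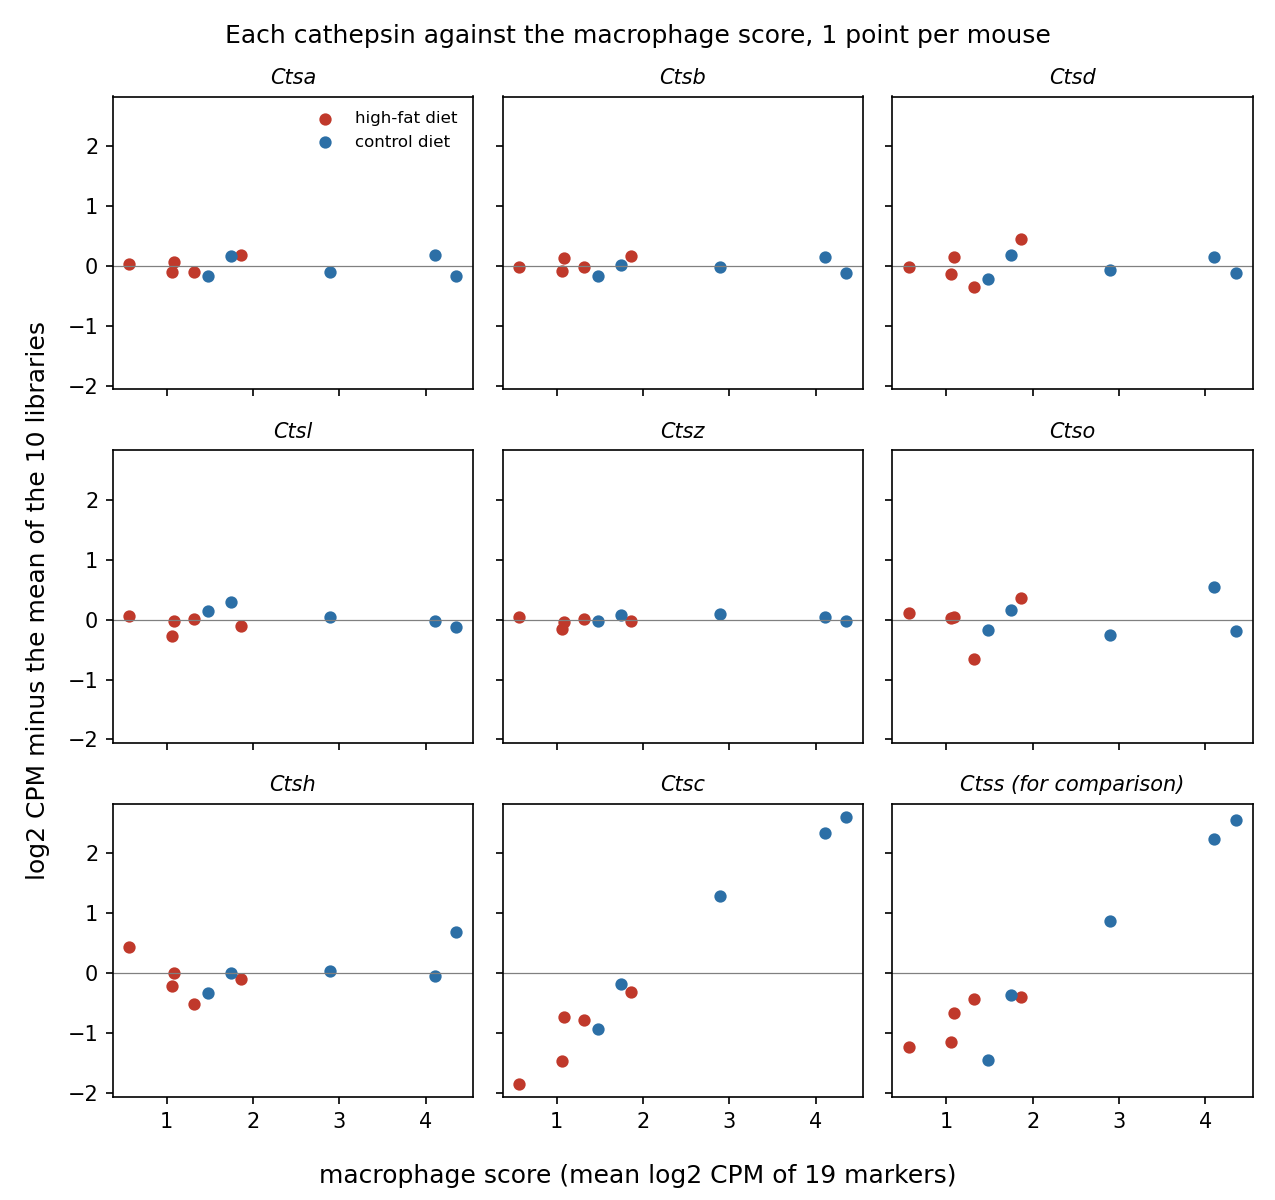
Log2 CPM of each tested cathepsin, less its mean over the 10 libraries, against the macrophage score in log2 CPM, with 1 point per mouse. Ctsc and Ctss climbed with the score and covered several log2 units, whereas the other 7 panels stayed near the line at 0.

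**Figure D3:**
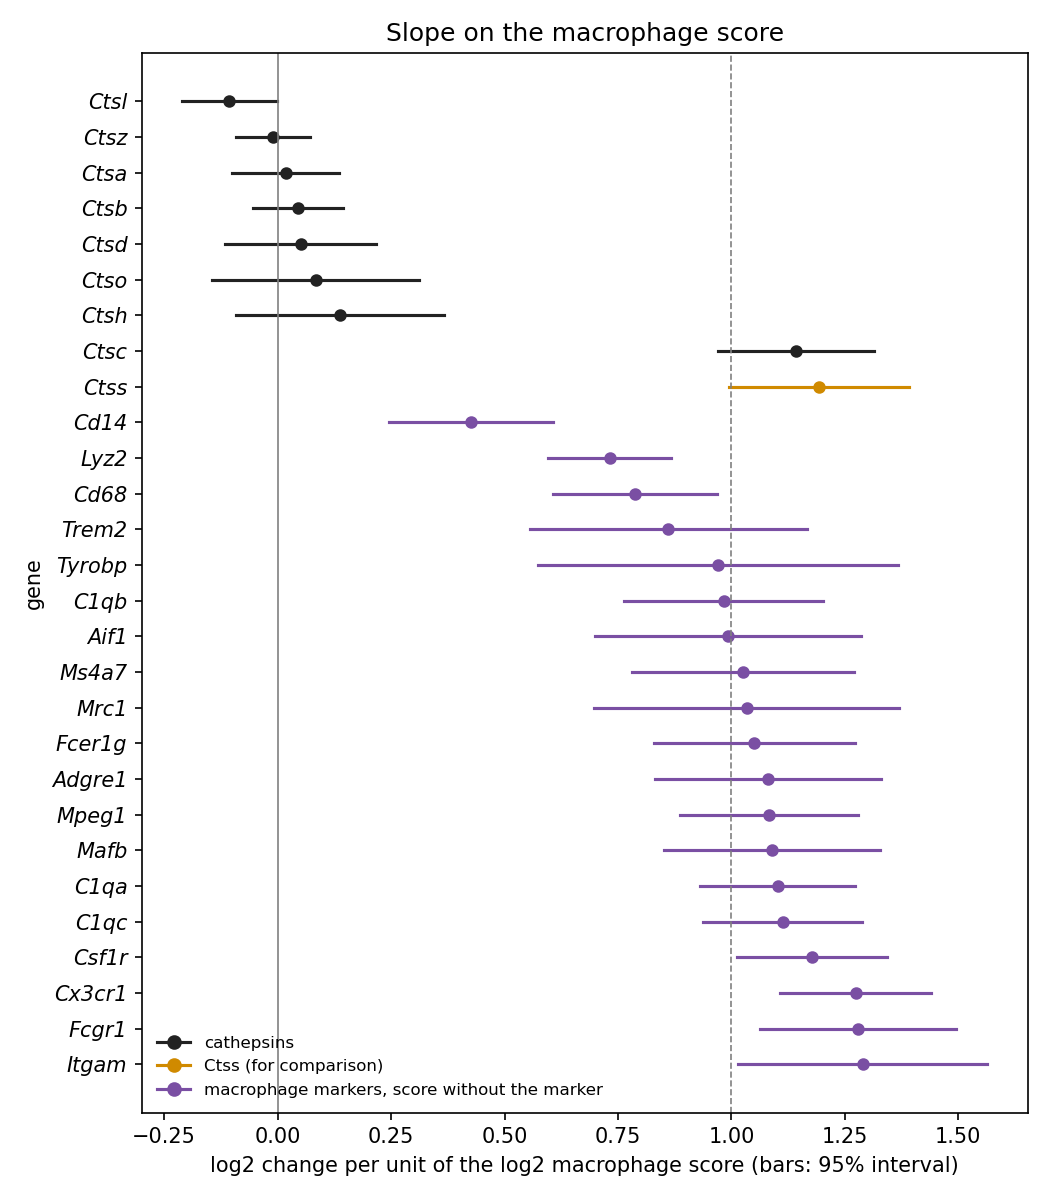
Slope of each gene on the macrophage score in log2 units per unit of score, from a model that also held diet, with 95% intervals as bars. The slopes of 7 cathepsins lay between -0.11 and 0.14, and Ctsc, Ctss and the 19 macrophage markers lay between 0.43 and 1.29.

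Promoter sequence is shown for the genes on both sides of the contrast: Ctsc and Ctss, which followed the macrophage score, and Ctsa, Ctsd, Ctsl, Ctso and Ctsz, the genes with a window among the 7 that did not. Each line is a RefSeq promoter window on GRCm38.p6, from 250 bases before to 50 after a start site, written 5′ to 3′ on the gene's strand, and 8 of the 10 cathepsins had such a window, all but Ctsb and Ctsh. Capitals in Ctsc (chr7:88277835-88278134, plus strand) and Ctss (chr3:95526536-95526835, plus strand) mark GAGGAAGT read on the opposite strand, the form bound by ETS factors such as PU.1 of myeloid cells. Capitals in Ctsa (chr2:164833523-164833822, plus strand, the second of 2 windows, of which the first held none of the motifs), Ctsd (chr7:142387778-142388077, minus strand) and Ctsl (chr13:64370471-64370770, minus strand) mark CACGTG or TCACGTGA, the E-box forms bound by TFEB and related regulators of lysosomal genes. Ctso (chr3:81932351-81932650, plus strand) and Ctsz (chr2:174438990-174439289, minus strand) held none of the 3 motifs and have no capitals.
Ctsc: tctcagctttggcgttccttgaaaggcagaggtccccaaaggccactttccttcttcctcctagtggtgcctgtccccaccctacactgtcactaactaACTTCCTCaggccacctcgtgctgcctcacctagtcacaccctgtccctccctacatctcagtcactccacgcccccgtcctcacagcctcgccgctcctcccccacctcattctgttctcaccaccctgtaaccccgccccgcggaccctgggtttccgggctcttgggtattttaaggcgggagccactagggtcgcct
Ctss: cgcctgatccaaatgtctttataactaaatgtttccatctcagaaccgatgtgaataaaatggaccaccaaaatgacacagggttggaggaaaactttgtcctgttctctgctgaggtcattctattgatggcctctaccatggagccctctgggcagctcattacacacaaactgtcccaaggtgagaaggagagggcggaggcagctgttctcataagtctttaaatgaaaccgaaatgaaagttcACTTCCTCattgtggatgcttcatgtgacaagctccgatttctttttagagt
Ctsa: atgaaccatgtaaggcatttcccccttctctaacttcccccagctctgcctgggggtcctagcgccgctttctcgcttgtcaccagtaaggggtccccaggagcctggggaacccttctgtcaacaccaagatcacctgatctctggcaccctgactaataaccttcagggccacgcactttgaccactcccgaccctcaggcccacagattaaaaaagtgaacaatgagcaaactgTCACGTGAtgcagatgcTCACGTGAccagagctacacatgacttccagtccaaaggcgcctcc
Ctsd: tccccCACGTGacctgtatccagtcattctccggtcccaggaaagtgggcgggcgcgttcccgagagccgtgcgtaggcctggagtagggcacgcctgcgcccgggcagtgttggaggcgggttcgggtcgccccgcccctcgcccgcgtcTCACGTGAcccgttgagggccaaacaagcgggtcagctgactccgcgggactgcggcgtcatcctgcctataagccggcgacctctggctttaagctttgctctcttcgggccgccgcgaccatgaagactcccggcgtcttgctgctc
Ctsl: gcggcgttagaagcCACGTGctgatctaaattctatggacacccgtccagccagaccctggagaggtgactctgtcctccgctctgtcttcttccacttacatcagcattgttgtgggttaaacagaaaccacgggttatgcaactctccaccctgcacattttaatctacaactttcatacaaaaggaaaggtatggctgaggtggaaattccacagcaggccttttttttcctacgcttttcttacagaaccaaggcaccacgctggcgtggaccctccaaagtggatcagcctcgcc
Ctso: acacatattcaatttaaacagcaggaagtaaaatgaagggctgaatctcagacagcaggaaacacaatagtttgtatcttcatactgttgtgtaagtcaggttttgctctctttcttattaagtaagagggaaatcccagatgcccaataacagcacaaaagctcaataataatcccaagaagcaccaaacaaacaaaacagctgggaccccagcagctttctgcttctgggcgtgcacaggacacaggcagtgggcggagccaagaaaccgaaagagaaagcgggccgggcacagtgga
Ctsz: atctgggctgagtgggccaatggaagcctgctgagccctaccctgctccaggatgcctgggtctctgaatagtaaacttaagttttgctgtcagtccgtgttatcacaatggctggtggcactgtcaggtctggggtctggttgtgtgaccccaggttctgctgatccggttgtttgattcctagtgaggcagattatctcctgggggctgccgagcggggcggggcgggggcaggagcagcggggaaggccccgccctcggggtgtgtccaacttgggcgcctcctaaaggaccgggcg

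Both strands of each window were searched, and every TCACGTGA also holds a CACGTG. TCACGTGA was in 0.974% of 32851 promoter windows and in those of 2 cathepsins, with 2 copies in Ctsa, at -13 and 4 bases from the start site, and 1 in Ctsd at -99. CACGTG was in 7.15% of windows and in those of 4 cathepsins, Ctsa, Ctsd, Ctsl at -236 and Ctsf at -79. GAGGAAGT was in 3.2% of windows and in that of 1 cathepsin, Ctsc at -151, besides that of Ctss at -2. The motifs were chosen with the expression results known, and a match describes letters only.

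Among the endopeptidases, Ctsl encodes cathepsin L, a broad cysteine endopeptidase (GRCm38 chr13:64359337-64370890, minus strand). Ctsl had 1612, 1432, 1270.4, 1511 and 1557 CPM in high-fat mice 1 to 5, against 1579, 1693, 1523, 1412 and 1893 CPM in control mice 1 to 5. Control mouse 5 was highest and high-fat mouse 3 lowest, and the groups overlapped. Its slope of -0.11 on the score was the only one of the 7 with an interval short of 0 (-0.21 to -0.00; unadjusted p = 0.0457 and adjusted p = 0.473, edgeR), and it did not pass after adjustment.

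Ctsb encodes cathepsin B, an endopeptidase that also trims dipeptides from C termini (GRCm38 chr14:63122462-63145923, plus strand). Ctsb had 659, 747, 626, 727 and 655 CPM in high-fat mice 1 to 5, against 655, 594, 734, 614 and 672 CPM in control mice 1 to 5. The groups overlapped almost fully, and control mice 3 and 4, alike in macrophage score, lay near opposite ends of the control range. The slope on the score was 0.05 (95% interval -0.05 to 0.14; edgeR adjusted p = 0.807).

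Ctsd encodes cathepsin D, the aspartic endopeptidase (GRCm38 chr7:142375911-142388038, minus strand). Ctsd had 339, 468, 312, 381 and 268 CPM in high-fat mice 1 to 5, against 329, 296, 380.2, 314 and 387 CPM in control mice 1 to 5. Both the highest and the lowest library came from high-fat mice. The slope on the score was 0.05 (95% interval -0.12 to 0.22; edgeR adjusted p = 0.879).

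Ctsa encodes cathepsin A, a serine carboxypeptidase that also shields the glycosidases encoded by Glb1 and Neu1 in a complex (GRCm38 chr2:164832873-164841032, plus strand). Ctsa had 388, 433, 355, 398 and 353 CPM in high-fat mice 1 to 5, against 354, 339, 432, 340.2 and 429 CPM in control mice 1 to 5, and the groups overlapped. Its slope on the score was 0.02 (95% interval -0.10 to 0.14), and those of its partners were 0.06 for Glb1 and 0.05 for Neu1, none of the 3 past the threshold.

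Of the 3 genes left, Ctsz was flatter than Ctsl, Ctsb, Ctsd and Ctsa. Ctsh and Ctso were lower in level than those 4 and more variable, with coefficients of variation of 26.1% and 23.0%. Ctsz, a carboxypeptidase also called cathepsin X (GRCm38 chr2:174427493-174439039, minus strand), varied least of the 10, with a coefficient of variation of 4.85%. Ctsz had 375, 358, 329, 356 and 367 CPM in high-fat mice 1 to 5, against 391, 359, 375, 359 and 386 CPM in control mice 1 to 5, and its slope was -0.01. Ctsh, an aminopeptidase (GRCm38 chr9:90054152-90076089, plus strand), had 36.5, 25.2, 23.3, 27.1 and 18.7 CPM in high-fat mice 1 to 5, against 27.6, 21.3, 26.1, 43.2 and 27.0 CPM in control mice 1 to 5. Control mouse 4 was the highest for Ctsh and also for the macrophage score, whereas control mouse 3, second in score, was near the control median. The slope of Ctsh was 0.14 (95% interval -0.09 to 0.37; edgeR adjusted p = 0.731). Ctso, a cysteine cathepsin of broad expression (GRCm38 chr3:81932601-81956725, plus strand), had 46.3, 55.4, 44.0, 44.4 and 27.4 CPM in high-fat mice 1 to 5, against 36.2, 38.4, 63.0, 37.7 and 48.3 CPM in control mice 1 to 5. Its slope was 0.08 (95% interval -0.14 to 0.31; edgeR adjusted p = 0.85), and the groups overlapped for all 3 genes.

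No tested cathepsin passed the adjusted threshold for diet, 0 of 8 (edgeR quasi-likelihood test), and of all genes 0.0628% did. At an unadjusted p under 0.05, 1 of 8 passed, Ctsc, against 12.1% of all genes. The groups overlapped for all 8, and 2.18% of all genes had groups that did not overlap. Ctsc averaged 5.52 ± 2.19 CPM on the high-fat diet and 31.2 ± 25.9 CPM on the control diet (SD, n = 5 each), a log2 difference of -2.50 (95% interval -3.93 to -1.07; edgeR adjusted p = 0.188). By DESeq2 the same difference passed (adjusted p = 0.0157), where 1.46% of all genes were called lower on the high-fat diet. It also passed in edgeR with a pan-leukocyte score in the model (-1.21, adjusted p = 0.0284). The share of all genes that passed in that model is not given here, so this call has no background beside it.

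The macrophage markers leaned the same way. All 19 had lower means on the high-fat diet, with a median log2 difference of -2.38. None passed the adjusted threshold (edgeR), while 19 had an unadjusted p under 0.05, against 12.1% of all genes. With the macrophage score in the model, the diet difference of Ctsc was -0.05 (95% interval -0.49 to 0.39; edgeR adjusted p = 0.936). With diet alone and without control mice 3 and 4, the difference of Ctsc was -1.27 (edgeR adjusted p = 0.202). Control mouse 1, with 25.4 CPM of Ctsc and a score of 2.90, was the highest of the control mice left.

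For the other 7 the intervals bound how large a diet difference could be. The narrowest was that of Ctsz, a high-fat to control ratio of 0.96 (95% interval 0.87 to 1.05). Those of Ctsa, Ctsb and Ctsl were 1.02 (0.88 to 1.17), 1.04 (0.92 to 1.18) and 0.91 (0.79 to 1.05). Ctsd had 1.04 (0.85 to 1.27), Ctsh 0.90 (0.66 to 1.22) and Ctso 0.97 (0.73 to 1.30). Missing the threshold does not show that the diets gave equal levels, and differences inside these intervals remain possible with 5 mice per diet. The intervals are not limits of detection. Ctsc, with a log2 interval of -3.93 to -1.07, also missed the adjusted threshold.

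**Figure D4:**
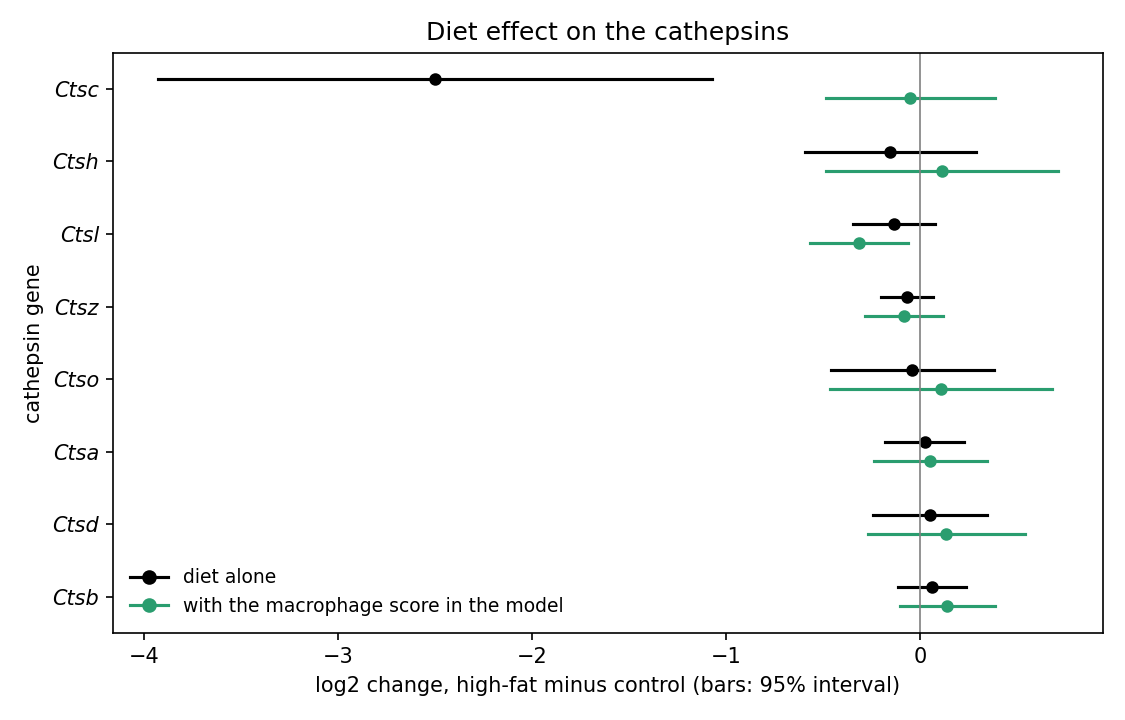
High-fat minus control log2 difference of each tested cathepsin, with 95% intervals, from the model with diet alone (black) and from the model that also held the macrophage score (green). Ctsc was at -2.50 with diet alone and at -0.05 with the score, and the other 7 lay between -0.31 and 0.14 in both models.

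With the score in the model, Ctsl had a diet difference of -0.31 (95% interval -0.57 to -0.06), with an unadjusted p of 0.0197 and an adjusted p of 0.224 by edgeR. This did not pass, and with diet alone the difference was -0.13.

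Ctsa varied with Ctsb, Ctsd and Ctso, and Ctsd with Ctsb and Ctso. Ctsl and Ctsz, the highest per kilobase, were outside this group, with r between -0.04 and 0.29 to the 4 genes. Of 28 pairs among the 8 tested genes, 5 passed an adjusted p of 0.05 for Pearson correlation of log2 CPM (permutation tests over 10 libraries, adjusted over the 28 pairs). All 5 lay within Ctsa, Ctsb, Ctsd and Ctso. How many pairs of other genes would pass was not counted. Ctsa and Ctsd had r = 0.87 (permutation p = 0.00068, adjusted p = 0.019; Spearman rho = 0.88, adjusted p = 0.0194). Ctsa and Ctsb had r = 0.87 (permutation p = 0.00185, adjusted p = 0.0259; rho = 0.94, adjusted p = 0.007). High-fat mouse 2 was high for all 4 genes and control mouse 3 for Ctsa, Ctsb and Ctso. For Ctsd control mouse 3 was below high-fat mice 2 and 4 and control mouse 5. Both relations held without high-fat mouse 2 and control mouse 3 (r = 0.84, exact p = 0.0101, and r = 0.75, exact p = 0.0416). Ctsa with Ctso had r = 0.81 (permutation p = 0.00299, adjusted p = 0.0279; rho = 0.87), and 0.64 without them (exact p = 0.0428). The pairs of Ctsd with Ctso (r = 0.82, permutation p = 0.00415, adjusted p = 0.0287; rho = 0.79) and of Ctsb with Ctsd (r = 0.80, permutation p = 0.00512, adjusted p = 0.0287; rho = 0.82) had r = 0.70 without high-fat mice 2 and 5 (exact p = 0.0518) and r = 0.65 without high-fat mouse 2 and control mouse 3 (exact p = 0.0823). These r values were close to that of Ctsa with Ctso, but neither pair had an exact p under 0.05 without those libraries. Fewer libraries also raise p, so this does not show that the pairs rested on them. By Spearman permutation tests over all 10 libraries both passed (adjusted p = 0.048 for Ctsd with Ctso and 0.0389 for Ctsb with Ctsd). The remaining pair of the 4 genes, Ctsb with Ctso, did not pass (r = 0.62, permutation p = 0.0537, adjusted p = 0.215). Without high-fat mouse 2 and control mouse 3 its r was 0.25 (exact p = 0.546).

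Ctsl and Ctsz formed a looser pair than those that passed, with r = 0.76 (permutation p = 0.0164, adjusted p = 0.0765, rho = 0.77). This r fell to 0.33 without high-fat mouse 3 and control mouse 5. Ctsc had its highest correlation with Ctsh, r = 0.40 (permutation p = 0.244, adjusted p = 0.854), which rested on control mice 3 and 4. Without them r was -0.07, and the highest value for Ctsc was 0.59 with Ctsz (exact p = 0.107). Subtracting each diet's mean left Ctsa with Ctsd at 0.87 and Ctsa with Ctsb at 0.88.

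**Figure D5:**
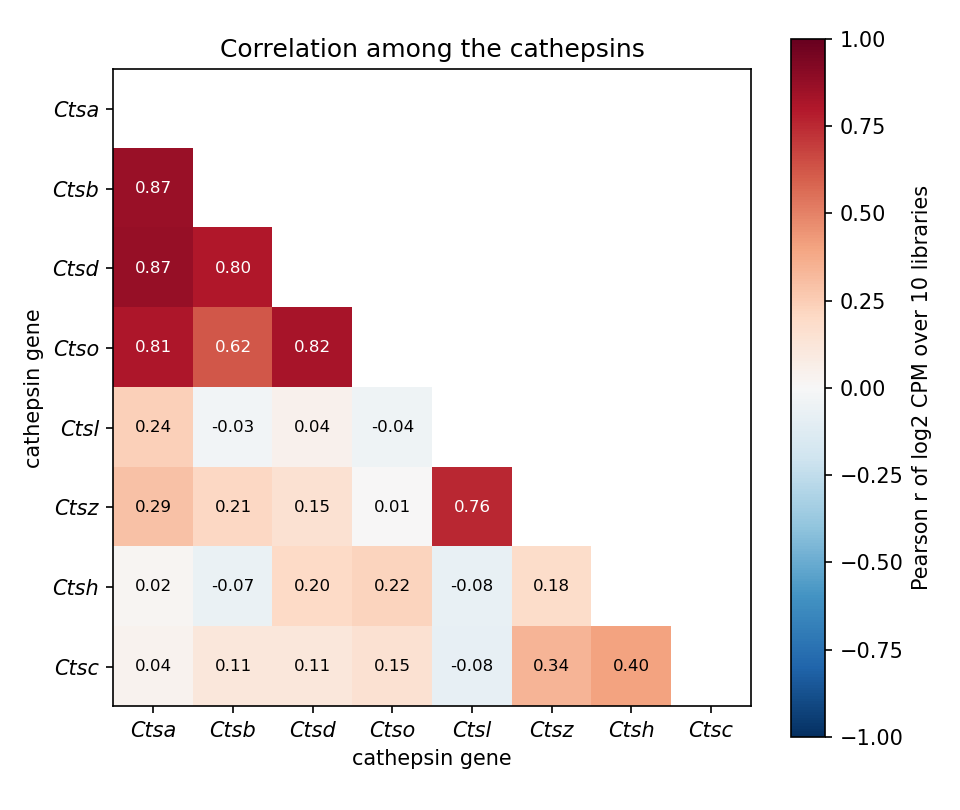
Pearson correlation of log2 CPM over the 10 libraries for the 28 pairs of tested cathepsins, on a colour scale from -1 to 1. Ctsa, Ctsb, Ctsd and Ctso formed a block of 0.62 to 0.87, in which Ctsb with Ctso, at 0.62, did not pass. Ctsl and Ctsz were a pair at 0.76. The highest value for Ctsc was 0.40, with Ctsh, or -0.07 without control mice 3 and 4.

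The genes most like each of these over the 10 libraries came from outside the macrophage list. Ctsa was most like Ergic3 (r = 0.955), Tbc1d20 (r = 0.950) and Efemp2 (r = 0.947), the first a cargo receptor of the early secretory pathway. Ctsb was most like Lrpap1 (r = 0.949), a chaperone of the LDL receptor family, Tnfrsf1a (r = 0.944), a TNF receptor, and Ikbip (r = 0.922). Ctsd was most like Pld3 (r = 0.952), itself a lysosomal enzyme, C1qtnf6 (r = 0.941) and Itm2b (r = 0.939). Ctso was nearest to Rnf167 (r = 0.939), Tef (r = 0.938) and Maged1 (r = 0.928). Ctsl was nearest to Rpl18-ps2 (r = 0.967), Galk1 (r = 0.961) and Mapkap1 (r = 0.960), Ctsz to Smarce1-ps1 (r = 0.948), Rtf2 (r = 0.923) and Cnot8 (r = 0.920), and Ctsh to Dkk2 (r = 0.954), Spata13 (r = 0.935) and Flywch1 (r = 0.916). These are the highest of 9637 correlations each and are given as a description.

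A second score was built, after the data were seen, from 37 other lysosomal hydrolases, to ask which cathepsins moved with the lysosome's other enzymes. In a model with diet, Ctso had a slope of 2.52 (95% interval 1.58 to 3.46; edgeR adjusted p = 0.0202) and Ctsd of 1.79 (95% interval 1.07 to 2.50; edgeR adjusted p = 0.0251), so 2 of 8 passed, against 1.42% of all genes. Ctsa had 1.06 (edgeR adjusted p = 0.0635) and Ctsb 0.74 (edgeR adjusted p = 0.156), while Ctsl had -0.13 and Ctsz 0.01. The score itself covered only 5.85 to 6.18 on the high-fat diet and 5.86 to 6.17 on the control diet. Both calls were lost when control mouse 1, 2 or 3 or high-fat mouse 2 or 5 was left out, with adjusted p between 0.0521 and 0.109, and that of Ctsd also without high-fat mouse 4 (edgeR adjusted p = 0.0552). With single libraries left out the slopes stayed between 2.08 and 2.94 for Ctso and between 1.42 and 2.02 for Ctsd. Over the same omissions from 1 to 866 of all genes passed, in either direction. Ctsc had a wide interval on this score, -2.91 to 10.1.

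Genes that work with the cathepsins were counted by list. Of all genes, 0.0628% passed the adjusted threshold for diet and 1.86% passed with a positive slope on the macrophage score (edgeR). Of 38 other lysosomal hydrolases tested, none passed the adjusted threshold for diet in either direction (edgeR). At an unadjusted p under 0.05, 3 were higher and 3 lower, against 12.1% of all genes in either direction. The median log2 difference was 0.03, against 0.01 over all genes tested. The lowest p was that of Acp5, the tartrate-resistant acid phosphatase of osteoclasts and macrophages, at -1.95 (edgeR adjusted p = 0.183; 0.0164 by DESeq2, which passed), followed by Gm2a, the GM2 ganglioside activator, at -0.51 (edgeR adjusted p = 0.242) and Pla2g15, a lysosomal phospholipase, at -0.36 (edgeR adjusted p = 0.255; 0.0403 with the pan-leukocyte score in the model). None of the 38 passed on the macrophage score beside diet, where the median slope was 0.06. Acp5 had a slope of 0.63 there (edgeR adjusted p = 0.174), and of 0.79 with no diet term (edgeR adjusted p = 0.0065), which passed.

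Of 12 sorting and processing genes none passed for diet or for the score in edgeR with the settings used throughout, though Lgmn did under others. Lgmn encodes legumain, the asparaginyl endopeptidase that trims cysteine cathepsins in the lysosome. Lgmn had 58.3, 56.9, 48.7, 57.7 and 53.9 CPM in high-fat mice 1 to 5, against 73.0, 55.3, 99.2, 106 and 79.7 CPM in control mice 1 to 5. All but 1 of the control mice were above every high-fat mouse, and control mice 3 and 4 were highest. Its diet difference was -0.59 (edgeR adjusted p = 0.183; 0.017 by DESeq2) and its slope on the macrophage score 0.22 (edgeR adjusted p = 0.0993). The slope passed by DESeq2 (adjusted p = 0.0229) and in edgeR with no filter on low counts (adjusted p = 0.0309), without control mouse 5 (adjusted p = 0.0338) and with no diet term (adjusted p = 0.00249). Without control mice 3 and 4 the slope of Lgmn was 0.08 (edgeR adjusted p = 1) and its diet difference -0.33 (edgeR adjusted p = 0.187), and without control mouse 2 the slope was 0.14 (edgeR adjusted p = 0.56). Psap, the precursor of the saposins, had a diet difference of -0.20 (edgeR adjusted p = 0.414) and Scarb2, the receptor that carries glucocerebrosidase to lysosomes, of -0.25 (edgeR adjusted p = 0.272).

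Cysteine protease inhibitors were represented by 3 tested genes of 10, and none passed either test (edgeR). Cst3, the secreted inhibitor cystatin C, averaged 249 ± 24.6 CPM on the high-fat diet and 261 ± 32.0 CPM on the control diet (SD, n = 5 each). Cstb, the cytosolic inhibitor cystatin B, averaged 176 ± 22.1 CPM on the high-fat diet and 157 ± 18.02 CPM on the control diet (SD, n = 5 each), a log2 difference of 0.17 (edgeR adjusted p = 0.559). The slope on the macrophage score was 0.00 for Cst3, -0.09 for Cstb and -0.22 for Cst6, a cystatin of epithelia.

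Among 16 lysosomal membrane and lumen proteins, 16 subunits of the vacuolar ATPase, the proton pump that acidifies the lysosome, and 9 tested regulators of lysosomal transcription, none passed for diet or for the score (edgeR). Lamp1, the main lysosomal membrane glycoprotein, differed by -0.04 between the diets. Ostm1, a subunit of the lysosomal chloride channel, differed by -0.25 (edgeR adjusted p = 0.197), Atp6v1d by 0.23 (edgeR adjusted p = 0.276), and Tfeb by 0.21 (edgeR adjusted p = 0.541). Of 13 further cathepsin genes 10 had no count in any library, and Ctsw, a cathepsin of natural killer and cytotoxic T cells, had a slope of 0.59 on the macrophage score that did not pass (edgeR adjusted p = 0.213), and of 0.61 on the pan-leukocyte score that did (edgeR adjusted p = 0.0202).

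Some counts are uncertain because of neighbouring annotation. Ctsd shares 34.4% of its exon bases with the predicted gene Gm49369 on the same strand, which had 0 counts in all libraries. The strand setting of the counting is not stated, so reads of Ctsl and Gm47123 (26.8% of Ctsl exon bases), of Ctsb and Fdft1 (12.8% of Ctsb), and of Ctsa and Pltp (10.5% of Ctsa) cannot be told apart where they overlap. Gm47123 had 0 counts in all libraries, and Fdft1 and Pltp averaged 40.6 and 23.4 CPM over the 10 libraries. Ctsc shared 0.8% of its 50-base windows with transcripts of other genes.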

How the data were processed

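The authors deposited raw read counts per gene as whole numbers, 1 column per mouse, for all 10 libraries. Per the labels' protocols, a NEBNext Ultra kit was used on polyadenylated RNA. Tools named without a role in the submitters' processing notes are DESeq2 1.24.0, BWA 0.7.12, cutadapt 1.15 and FastQC 0.11.5, beside the build GRCm38 (mm10). The counter, annotation release and strand setting were not found there. Identifiers were matched to symbols through GENCODE M21 (53274 of 53379 matched, version suffixes ignored).

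Counts were normalized by TMM and filtered by diet group with filterByExpr (14337 genes, 99.87% of counts), then analysed in edgeR 4.0.16 (R 4.3.3) with robust quasi-likelihood fits, two-sided tests and Benjamini-Hochberg adjustment over all genes tested, at a threshold of 0.05. Diet was fitted alone, as high-fat minus control. The macrophage score, the mean log2 CPM (prior count 2) of the tested markers, was fitted beside diet. Intervals are 95% intervals from these fits. Transcript lengths are of the principal transcript with a RefSeq match. Alternatives were DESeq2 1.42.0, limma-voom (limma 3.58.1), RLE factors, no filter, a mean of at least 10 CPM, covariates, other scores and omitted libraries. The fits were tested on simulated data. Nothing states whether mice were housed apart, so p-values measure the spread between these libraries.

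The members and the gene lists were chosen with earlier results of these data known. Named genes are the 10 cathepsins, set partners (Glb1, Neu1, Lgmn, Psap, Cst3, Cstb, Ctss, Lamp1), genes among the 3 lowest p-values of each list in either fit, and the 3 genes most correlated with each cathepsin. One gene that met this rule is not reported here.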

Additional observations from a re-analysis of the deposited data

Results flagged for a closer look

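Ctsh stood out in 1 library. High-fat mice had 18.7 to 36.5 CPM and control mice other than mouse 4 had 21.3 to 27.6 CPM, whereas control mouse 4 had 43.15 CPM. The gap to the nearest control mouse was 0.713 of the control range, just above Dixon's 95% value of 0.71 for 5 samples. In all, 24 groups were examined, and chance flags about 1 in 20. The same mouse had the highest macrophage score, 4.36, and its part in the Ctsh value was not tested.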

How the results depend on the processing

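The slope call for Ctsc held in every alternative, with slopes from 0.97 to 1.34, and the count of cathepsins following the macrophage score was 1 throughout. With single libraries left out, from 143 to 399 of all genes passed on that score, in either direction. The count of cathepsins past the diet threshold was 0, but 1 with DESeq2 and 1 with the pan-leukocyte score in the model, both times Ctsc, and 0 whichever single library was left out. With DESeq2, 1.46% of all genes were called lower on the high-fat diet. The share with the pan-leukocyte score is not given here. With single libraries left out, from 1 to 27 of all genes passed for diet. The count following the hydrolase score was 4 with DESeq2, 1 with library size in the model, 0 with the replicate block and 0 without control mice 3 and 4, and from 0 to 3 with single libraries left out. Of all genes, from 1 to 866 passed on that score in either direction with single libraries left out. The swing was therefore not particular to the cathepsins. For the other settings the number of all genes passing is not given here. The cause of these changes was not tested. The mouse numbers gave no pairing: same-numbered mice of the 2 diets correlated at 0.23, -0.36, 0.33, -0.07 and 0.15, and with the replicate block the Ctsc slope was 1.16.

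None of the values that changed sign passed the threshold before or after. Diet differences became -0.059 for Ctsa and -0.0040 for Ctsd with library size in the model. They became 0.046 for Ctsh and 0.087 for Ctso without control mice 3 and 4. They became 0.11 for Ctsh, 0.11 for Ctso and 0.50 for Ctss with the macrophage score, and 0.038 for Ctso with the pan-leukocyte score. Slopes on the macrophage score became -0.0020 for Cst3 with no filter, -0.0073 for Cst3 on the pan-leukocyte score, and 0.018 for Ctsz and -0.023 for Neu1 with the replicate block. Without control mice 3 and 4 they were -0.10 for Ctsh, -0.016 for Ctso, 0.026 for Ctsz, -0.049 for Neu1 and -0.0082 for Cst3. With no diet term they were 0.014 for Ctsz, -0.0038 for Neu1, -0.0087 for Glb1, -0.0057 for Tfeb and 0.093 for Rragd. On the hydrolase score Ctsl had 0.28 with the replicate block and 0.10 without control mice 3 and 4, and Ctsz -0.026 with library size.

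With single libraries left out, diet differences ran from -0.015 to 0.079 for Ctsa, -0.065 to 0.14 for Ctsd, -0.30 to 0.036 for Ctsh, -0.13 to 0.12 for Ctso and -0.125 to 0.0044 for Cst3. Slopes on the macrophage score ran from -0.026 to 0.074 for Ctsa, -0.029 to 0.21 for Ctsh, -0.035 to 0.18 for Ctso, -0.035 to 0.0060 for Ctsz, -0.0071 to 0.077 for Psap and -0.070 to 0.075 for Cst3. On the hydrolase score they ran from -0.34 to 0.036 for Ctsl and -0.099 to 0.14 for Ctsz. Depth limited Ctsk, with at most 12 counts in a library, and Ctsf, with at most 2.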
